A study of Homo sapiens with 5 samples.

Results

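The genes of GABA synthesis, transport and chloride balance were taken as a named set of 5: GAD1, GAD2, SLC32A1, SLC12A2 and SLC12A5. They were chosen by name, with earlier results of these data known. They are 5 of the 32732 genes listed in both human annotations of the 5 libraries. Each was followed over neurons, progenitors and astrocytes in every library, together with the ratio of SLC12A5 to SLC12A2 in neurons by stage.

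GABA is the main inhibitory transmitter of the mature forebrain. GAD1 and GAD2 encode the glutamate decarboxylases GAD67 and GAD65, which make GABA from glutamate, and SLC32A1 encodes VGAT, the transporter that loads GABA into synaptic vesicles. GABA opens chloride channels, so its effect on a neuron depends on the chloride gradient. SLC12A2 encodes NKCC1, a cotransporter that brings chloride into cells, and SLC12A5 encodes KCC2, the neuronal cotransporter that moves it out. In the developing forebrain NKCC1 is found in progenitors, glia and young neurons, while KCC2 appears as neurons mature, and GABA neurons come mostly from progenitors that use DLX transcription factors.

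The study transplanted human brain organoids into the brains of young adult SCID-Beige mice, which lack functional lymphocytes, and profiled single cells by 10x Genomics 3′ sequencing, in which each captured RNA molecule is counted once by its unique molecular identifier (UMI). All organoids came from H9, an established human embryonic stem cell line, in a version that carries ChR2-EYFP at the AAVS locus, and the labels give the genotype as WT. D0 was cultured organoids on day 42, the age at which they were transplanted. HIP_2MPT and PFC_2MPT were grafts taken 2 months post transplantation (MPT) from the hippocampus (HIP) and the prefrontal cortex (PFC), and HIP_4MPT and PFC_4MPT were grafts from the same sites at 4 months. All 5 libraries came from this single line, and the labels do not say how many organoids or mice each one holds. The libraries of both sites therefore served as the 2 replicates of a graft stage, D0 had none, and p-values measure the spread between libraries, which also holds the difference between sites.

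After the stated filters 34390 human cells remained, from 4885 to 8363 per library. The median cell held 9847 UMIs in D0 and 1253 to 2759 in the grafts, so D0 stood apart in depth. D0 also differed from the grafts in its dissociation enzyme and its annotation release, and neither can be told apart from transplantation. Between 6 and 20 cell barcodes were shared by any pair of libraries. Cells were clustered with the 5 genes left out, and 20 of 22 clusters were named from fixed markers, giving 2153, 7379, 4865, 4738 and 6446 neuron-like cells in D0, HIP_2MPT, PFC_2MPT, HIP_4MPT and PFC_4MPT. Progenitor-like cells numbered 1749 in D0 and 411 to 512 in the grafts, and astrocyte-like cells 92 in D0 and 358 to 539 in the grafts. The label of astrocyte rested on weak markers before 4MPT: the 9 astrocyte markers summed to 192, 415 and 653 UMIs per 1000000 UMIs of the class (CPM) in D0, HIP_2MPT and PFC_2MPT, against 5581 and 4402 CPM in HIP_4MPT and PFC_4MPT, and GFAP was at 0 in D0.

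The loci are given first, in the GENCODE annotation of GRCh38. GAD1 (ENSG00000128683) spans chr2:170813213-170861151 and its canonical transcript has 17 exons. GAD2 (ENSG00000136750) spans chr10:26216665-26304558 with 16 exons, and SLC32A1 (ENSG00000101438) is a compact gene of 2 exons at chr20:38724486-38729372. SLC12A2 (ENSG00000064651) lies at chr5:128083766-128189677 with 27 exons and SLC12A5 (ENSG00000124140) at chr20:46021690-46060150 with 26. All 5 are protein coding and on the plus strand. GAD1 overlaps 3 antisense genes, SLC12A5 overlaps SLC12A5-AS1 and SLC12A2 overlaps the pseudogene POGLUT2P1 on its own strand. The sources used here do not state whether counting used strand, so reads of a gene and its antisense partner may not have been separated.

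The promoters of GAD1, GAD2 and SLC32A1 are shown because these genes moved together between the graft stages. Each window runs from 250 bases before a RefSeq start to 50 after it (GRCh38.p14, plus strand), at chr2:170816637-170816936, chr10:26216524-26216823 and chr20:38724236-38724535. The GAD1 window lies inside the annotated span of the gene, at a later start. Capitals mark matches to the GC box GGGCGG or to the TATA core TATAAA on either strand.
GAD1: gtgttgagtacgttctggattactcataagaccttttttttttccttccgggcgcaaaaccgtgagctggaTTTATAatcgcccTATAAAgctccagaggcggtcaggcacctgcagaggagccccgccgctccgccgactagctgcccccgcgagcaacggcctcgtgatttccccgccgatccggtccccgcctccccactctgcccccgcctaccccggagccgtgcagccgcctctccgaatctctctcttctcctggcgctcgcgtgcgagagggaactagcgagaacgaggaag
GAD2: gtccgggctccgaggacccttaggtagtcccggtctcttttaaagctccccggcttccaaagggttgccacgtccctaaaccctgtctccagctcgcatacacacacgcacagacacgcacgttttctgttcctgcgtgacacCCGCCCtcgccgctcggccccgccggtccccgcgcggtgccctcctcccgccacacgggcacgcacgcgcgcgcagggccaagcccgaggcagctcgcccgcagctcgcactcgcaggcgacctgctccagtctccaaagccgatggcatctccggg
SLC32A1: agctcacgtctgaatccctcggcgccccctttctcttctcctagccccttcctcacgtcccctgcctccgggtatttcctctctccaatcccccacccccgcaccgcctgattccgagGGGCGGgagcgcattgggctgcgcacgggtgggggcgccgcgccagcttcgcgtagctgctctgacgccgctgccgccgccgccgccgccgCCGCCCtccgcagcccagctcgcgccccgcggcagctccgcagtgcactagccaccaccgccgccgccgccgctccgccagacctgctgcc
The windows differ in these letters. GAD1 holds 2 matches to TATAAA and no GC box. At least 1 match to TATAAA is found in 11.5% of 35116 RefSeq promoter windows of the same length. GAD2 holds 1 GC box and SLC32A1 holds 2, a motif found in 45.0% of the windows. The windows of SLC12A2 and SLC12A5 (chr5:128083516-128083815 and chr20:46021436-46021735) hold 3 GC boxes each, those of SLC12A5 overlapping, and no TATAAA. The E-box CANNTG, present in 68.7% of windows, was matched 1 time in GAD1, 4 times in SLC12A5 and not in the other windows named here. The homeodomain core TAATTA, present in 4.84% of windows, was in none of the 5. Another RefSeq window of GAD2, at chr10:26216122-26216421 and not shown, holds 1 GC box and 2 E-boxes, and neither TATAAA nor TAATTA. These matches describe letters in a window and are not binding sites.

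The question put to the graft stages was whether genes of GABA neurons and of chloride balance changed between 2MPT and 4MPT. In neurons, all 3 genes of GABA synthesis and vesicle loading rose from 2MPT to 4MPT at both sites, while neither chloride cotransporter passed the test. Of the 17731 genes tested, 1.03% were called in either direction and 0.671% were called higher, and 3 of the 5 genes were called, each higher. Levels are CPM of the UMIs summed over a class in a library, and since 3′ UMIs count molecules they were not divided by gene length. In such sums fewer expressing cells and less RNA per cell cannot be told apart, so cell shares are given beside them further on. Intervals cover counting error only.

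GAD2 encodes the decarboxylase linked to synaptic terminals. It had 23.0 CPM in D0, 2.90 and 7.83 in the 2MPT grafts of HIP and PFC, and 64.2 and 199.6 in their 4MPT grafts. Both 4MPT libraries lay above D0 and both 2MPT libraries lay below it, with no overlap between stages. The increase from 2MPT to 4MPT was 22.2-fold at HIP (95% interval 15.2 to 33.6) and 25.5-fold at PFC (20.6 to 31.9). The fitted log2 fold change was 4.66 ± 0.58 (SE, n = 2 libraries per stage; adjusted p = 0.00293, edgeR quasi-likelihood test with Benjamini-Hochberg adjustment).

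GAD1, which encodes the decarboxylase found throughout the cell body, had 28.7 CPM in D0, 0.207 at HIP and 0.356 at PFC after 2 months, and 6.90 at HIP and 21.3 at PFC after 4 months. The 2MPT values rested on 2 and 4 UMIs. GAD1 was highest in D0, followed by PFC_4MPT and HIP_4MPT, and the order of the 2MPT libraries was within counting error. At HIP the increase was 33.3-fold (95% interval 8.95 to 279.8) and at PFC 59.8-fold (23.0 to 221). The fit gave a log2 fold change of 5.63 ± 0.67 (SE; adjusted p = 0.00257 by edgeR).

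SLC32A1, the vesicular GABA transporter, had 446 UMIs in D0 neurons (21.2 CPM). At HIP it had 0 UMIs after 2 months and 12 after 4 months (0.974 CPM), and at PFC it had 1 (0.0890 CPM) and 73 (6.58 CPM). It was the scarcest of the 5 genes in the neurons of every graft. Against a floor of 3 counts in the empty library, HIP_4MPT was 3.14-fold higher than HIP_2MPT, and the lower 95% counting limit of the fold was 2.18. PFC_4MPT was 73.9-fold above PFC_2MPT, with a counting interval of 12.9 to 2960. The gene passed the edgeR test (adjusted p = 0.0392), and its fitted log2 fold change of 6.08 ± 1.2 (SE) depends on the prior count and is no bound. The call was lost with DESeq2 (adjusted p = 0.0762), with cells of over 1000 UMIs (edgeR, adjusted p = 0.0645) and with neurons gated on marker UMIs (edgeR, adjusted p = 0.0741). In the joint human and mouse reference the gene was below the count filter and not tested. That fit held the grafts alone, without D0, so the filter also saw other libraries.

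**Figure D1:**
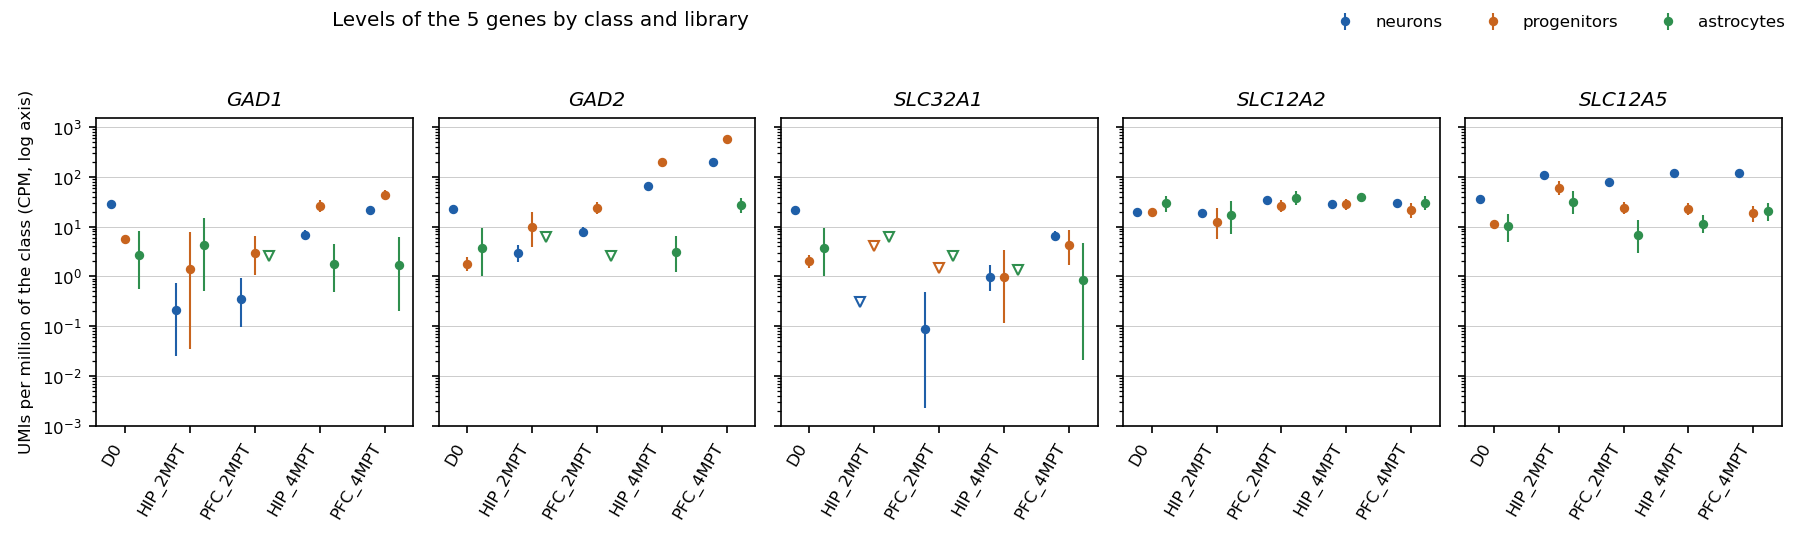
Level of each gene in CPM (log axis) by library, in neurons (blue), progenitors (orange) and astrocytes (green). Points are summed CPM with 95% counting intervals, and open triangles mark the level of 3 UMIs where none was counted. GAD1, GAD2 and SLC32A1 dip in both 2MPT libraries of neurons, from 28.7, 23.0 and 21.2 CPM in D0, while SLC12A2 stays between 18.8 and 34.3 CPM.

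The rise went with the share of neurons in the inhibitory-like cluster, which was named from 8 markers, DLX genes, SP8 and SCGN among them, without the 5 genes. It held 82 of 2153 neurons in D0, which is 3.81% (exact 95% interval 3.04 to 4.71). At 2MPT it held 12 neurons in HIP (0.163%, 0.0841 to 0.284) and 16 in PFC (0.329%, 0.188 to 0.534). At 4MPT it held 221 in HIP (4.66%, 4.08 to 5.30) and 992 in PFC (15.4%, 14.5 to 16.3). Both 4MPT libraries exceeded both 2MPT libraries, and PFC_4MPT stood above all others. The summed level of the 8 markers in all neurons was 367 CPM in D0, 5.0 and 16.5 at 2MPT, 165 in HIP_4MPT and 621 in PFC_4MPT. It gave the grafts the same order as the share, but put D0 above HIP_4MPT. These markers also named the cluster, so their sum is no separate check of the share. Clustered without integration, the D0 share was 0.595%, so the D0 value depended on how cells were grouped.

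Within inhibitory-like cells GAD2 was far above its level in other neurons at 4MPT: 1311 CPM in HIP_4MPT and 1039 in PFC_4MPT, against 3.66 and 40.02 in the remaining neurons. D0 inhibitory-like cells had 253 CPM, and both 4MPT libraries exceeded them, by 5.18-fold at HIP (95% interval 4.42 to 6.08) and 4.10-fold at PFC (3.54 to 4.77). GAD1 in the same cells was 127 CPM in D0, 145 in HIP_4MPT and 111 in PFC_4MPT, and both ratios to D0 had intervals that included 1. SLC32A1 was 106 CPM in D0, 21.0 in HIP_4MPT and 36.6 in PFC_4MPT, lower in both grafts than in D0. The 2MPT libraries had 12 and 16 such cells, with 17 and 81 GAD2 UMIs, too few for a level to be compared, and in HIP_2MPT only 4 of the 8 markers had a UMI in them. With 1 D0 library these contrasts have no replicate check.

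When inhibitory-like cells were left out, none of the 5 genes was called in neurons between 4MPT and 2MPT. GAD2 then had a log2 value of 4.70 ± 0.95 (SE; edgeR, adjusted p = 0.0546), which did not pass. The remaining neurons had 1.14 CPM of GAD2 in HIP_2MPT and 3.66 in HIP_4MPT, and 0.625 in PFC_2MPT and 40.02 in PFC_4MPT, so PFC_4MPT alone stood high. In PFC_4MPT GAD2 was at 16.7 CPM or more in every other neuron-like cluster, with a median of 29.7 over 11 clusters. Its peak there was 745 CPM in a cluster of 63 intermediate progenitor neurons led by NEUROG1, HES5 and DLL1. In HIP_4MPT the 9 other clusters had a median of 3.77 CPM and a highest value of 9.23.

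Shares of cells show the same split. After each cell was thinned to 1000 UMIs, at least 1 GAD2 UMI was found in 18.3% of inhibitory-like cells in D0, 65.3% in HIP_4MPT and 52.5% in PFC_4MPT (unthinned 75.6%, 81.0% and 61.9%). In the other neurons the thinned share was 1.49% in D0, 0.121% and 0.0648% in the 2MPT grafts of HIP and PFC, and 0.319% and 2.89% in their 4MPT grafts. Astrocyte-like cells, which should lack the gene, had 0%, 0%, 0%, 0.192% and 1.99%. The share in other neurons of PFC_4MPT was close to this background, so it is not read as expression in these neurons as a whole. Their GAD2 UMIs were uneven, with 119 of 373 in the cluster of 63 intermediate progenitor neurons, whose own share of cells was not taken. Median depth in all human cells was 1840 UMIs in PFC_4MPT and 2759 in HIP_4MPT.

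**Figure D2:**
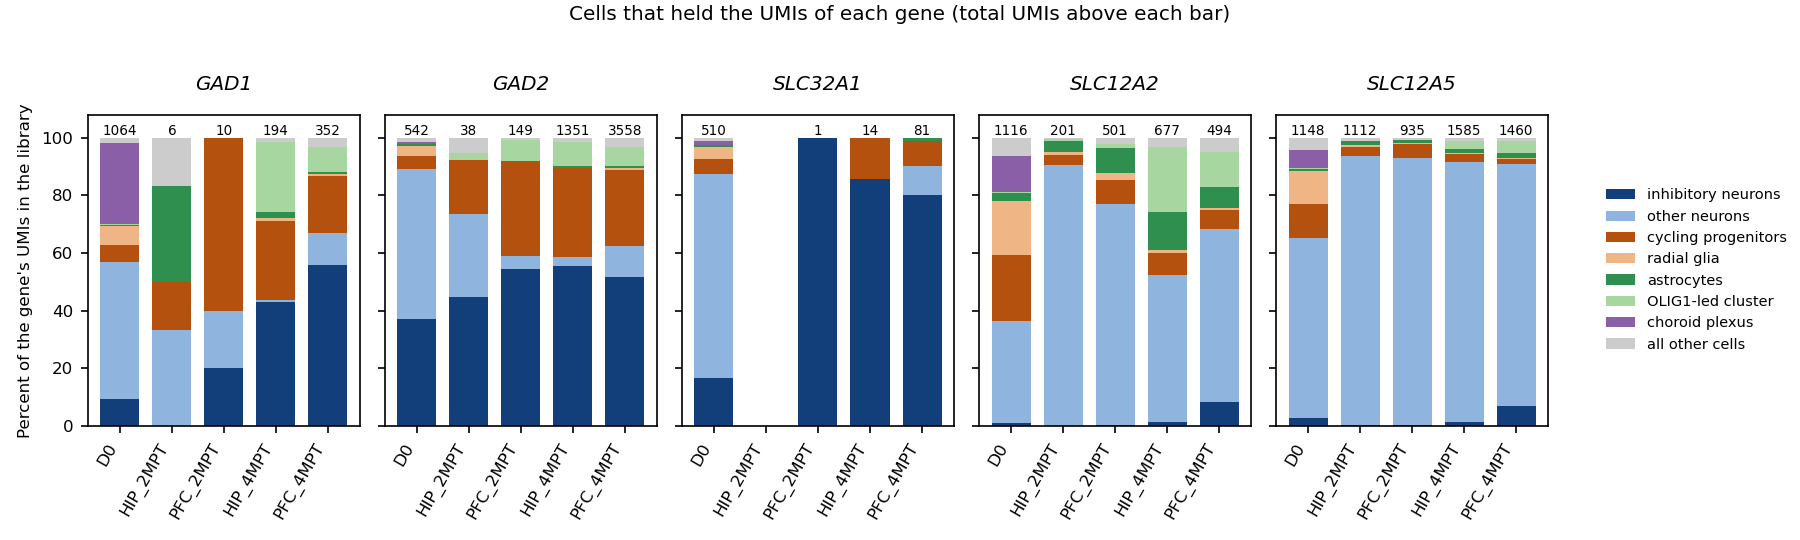
Percent of each gene's UMIs in a library (vertical axis) held by each group of cells, with the total UMIs above each bar. Inhibitory-like neurons held 55.4% of GAD2 UMIs in HIP_4MPT and 51.8% in PFC_4MPT, while other neurons held 84.0% or more of SLC12A5 in every graft.

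In progenitors the same genes were asked about between the stages. GAD1 and GAD2 rose and the chloride cotransporters did not pass the test, in a comparison where 0.987% of 13176 genes were called, 0.660% higher and 0.326% lower. SLC32A1 was below the count filter, with 48 UMIs in D0, none at 2MPT, 2 in HIP_4MPT and 7 in PFC_4MPT. GAD2 had 1.79 CPM in D0, 9.69 at HIP and 23.9 at PFC after 2 months, and 201.6 at HIP and 578 at PFC after 4 months. All grafts lay above D0, unlike in neurons, and the stages did not overlap. The fitted log2 fold change from 2MPT to 4MPT was 4.53 ± 0.48 (SE; edgeR, adjusted p = 3.09e-05).

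GAD1 in progenitors had 5.75 CPM in D0, 1.38 and 2.93 in the 2MPT grafts of HIP and PFC, and 26.4 and 43.2 in their 4MPT grafts. The 2MPT values rested on 1 and 6 UMIs, and both 4MPT libraries were above all others. Its log2 fold change was 3.92 ± 0.53 (SE; edgeR, adjusted p = 0.000351). Nearly all of these UMIs were in cycling progenitors: 419 of the 420 GAD2 UMIs in HIP_4MPT and 940 of 963 in PFC_4MPT. There GAD2 reached 246 and 700.4 CPM, against 2.65 and 70.8 CPM in radial glia.

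The thinned share of cycling progenitors with a GAD2 UMI was 0.181% in D0, 0.702% at HIP and 1.52% at PFC after 2 months, and 18.6% at HIP and 39.7% at PFC after 4 months. Both cycling clusters carried it at 4MPT. In the one led by S-phase genes such as RRM2 the level was 312 CPM in HIP_4MPT and 805 in PFC_4MPT, and in the one led by mitotic genes such as CDC20 it was 169 and 576 CPM. Inhibitory-neuron markers rose with GAD2 from 2MPT to 4MPT. The 8 markers summed to 159 CPM in D0 progenitors, 47.1 and 126 at 2MPT, 552 in HIP_4MPT and 1103 in PFC_4MPT. From D0 to 2MPT they fell while GAD2 rose. The 5 oligodendrocyte progenitor markers also rose between the graft stages, from 27.7 to 636 CPM at HIP and from 63.5 to 304 at PFC. The part of either set in the result was not tested.

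Astrocyte-like cells had little of the GABA genes. GAD1 had 3, 2, 0, 4 and 2 UMIs and GAD2 had 4, 0, 0, 7 and 32 in D0, HIP_2MPT, PFC_2MPT, HIP_4MPT and PFC_4MPT. SLC32A1 had 4 UMIs in D0 and 1 in PFC_4MPT. These 3 genes were below the count filter, and among the 11245 genes tested 1.61% were called (1.18% higher and 0.427% lower), neither chloride cotransporter among them. Only the GAD2 count of PFC_4MPT, 26.9 CPM, stood above the level in the other libraries, and it was a call in this class only where the filter, the cells or a library were changed.

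The balance between the decarboxylases differed between D0 and the grafts. The ratio of GAD2 to GAD1 UMIs in neurons was 0.801 in D0 (95% interval 0.710 to 0.905), 9.31 in HIP_4MPT (7.43 to 11.8) and 9.39 in PFC_4MPT (8.20 to 10.8). The 4MPT libraries agreed within counting error and lay above D0. At 2MPT it was 14.0 and 22.0, from 2 and 4 UMIs of GAD1. In inhibitory-like cells alone the ratio was 2.00 in D0 (1.57 to 2.57), 9.01 in HIP_4MPT (7.18 to 11.4) and 9.35 in PFC_4MPT (8.07 to 10.9). Which D0 cells were inhibitory-like depended on the clustering, as given above. The ratio of SLC32A1 to GAD2 in neurons moved the other way, with 0.921 in D0, 0.0152 in HIP_4MPT and 0.0330 in PFC_4MPT. The annotation release differed between D0 and the grafts, and its part in these ratios was not tested.

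UMIs of GAD2 and of DLX genes were often found in the same cells. Among thinned neurons of HIP_4MPT, 72.5% of the 153 cells with a GAD2 UMI also had a UMI of a DLX gene, against 1.46% of the cells without GAD2. In PFC_4MPT the shares were 68.5% of 620 cells and 9.32%. Progenitors gave 71.9% against 9.35% in HIP_4MPT and 78.5% against 17.7% in PFC_4MPT. UMIs of the vesicular glutamate transporters SLC17A6 or SLC17A7 were rarer in cells with GAD2 than in those without, at 0.654% against 7.61% in HIP_4MPT neurons and 1.77% against 6.37% in PFC_4MPT neurons. These shares are descriptions of cells of 1 library each.

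Against D0, the question was how grafted neurons compared with the organoids before transplantation. At 2MPT, 4 of the 5 genes were called against D0, 3 lower and 1 higher, where 43.9% of 17731 genes were called (26.5% higher and 17.4% lower), so a call in this comparison was common. The median log2 fold change of all genes was 0.15 at 2MPT and 0.16 at 4MPT, and the values below are to be read against it. In 2MPT neurons GAD1 fell by 6.75 on the log2 scale (± 0.70, SE; edgeR, adjusted p = 2.98e-05). GAD2 fell by 2.22 (± 0.61; adjusted p = 0.0118), a call that DESeq2 did not make (adjusted p = 0.132). SLC32A1 fell as well (edgeR, adjusted p = 0.000128). HIP_2MPT was 68.3-fold lower than D0 in SLC32A1, against a floor of 3 counts, and the upper 95% counting limit of its ratio to D0 was 0.0181.

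At 4MPT, 47.5% of genes were called against D0 (28.1% higher and 19.3% lower), and 3 of the 5 genes were among them, GAD2 and SLC12A5 higher and SLC32A1 lower. GAD2 was above D0 by 2.43 on the log2 scale (± 0.66, SE; edgeR, adjusted p = 0.0107), which DESeq2 did not call (adjusted p = 0.111). SLC32A1 fell by 2.58 (± 0.70; edgeR, adjusted p = 0.0103), and DESeq2 did not call it either (adjusted p = 0.245). GAD1 did not pass, at -1.12 ± 0.51 (edgeR, adjusted p = 0.0894). Without PFC_4MPT it was called lower, at -2.18 (edgeR, adjusted p = 0.00112), and it was also called without HIP_2MPT or without PFC_2MPT. D0 had no replicate and was assumed to vary like the grafts.

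In D0 the GABA genes were spread beyond the inhibitory-like cells. The inhibitory-like cluster held 16.6% of GAD1, 41.3% of GAD2 and 18.8% of SLC32A1 UMIs of D0 neurons. A cluster of 1089 D0 cells, led by NTS, CALB2, SST and EBF2, held 62.9%, 45.9% and 58.5%. It was named glutamatergic-like from 6 raised markers, and 3 markers of Cajal-Retzius neurons, an early cortical neuron type, were raised in it as well, EBF2 belonging to that list. Its levels were 28.8, 16.8 and 19.8 CPM, below the 127, 253 and 106 CPM of inhibitory-like cells. Cells with these UMIs in D0 carried few glutamate transporter UMIs: SLC17A6 or SLC17A7 was found in 1.75% of the 57 neurons with GAD1, 2.27% of the 44 with GAD2 and 5.17% of the 58 with SLC32A1, against 17.8% to 17.9% of neurons without the gene. A DLX UMI was found in 31.6%, 47.7% and 31.0% of them, against 8.24% to 8.45%. That cluster held at most 2 cells of any graft, so it and the D0 library cannot be told apart.

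Between the sites, GAD2 was the only 1 of the 5 genes called in neurons, where 0.201% of 15922 genes were called, 0.144% higher and 0.0565% lower in PFC. It was higher in PFC than in HIP at both stages, 2.70-fold at 2MPT (95% interval 1.75 to 4.30) and 3.11-fold at 4MPT (2.87 to 3.38). The 2MPT order rested on few cells. In PFC_2MPT 16 inhibitory-like cells held 81 of the 88 GAD2 UMIs of neurons, and in HIP_2MPT 12 such cells held 17 of 28. Over 9 other neuron-like clusters PFC_2MPT was higher in 3, lower in 5 and equal in 1. Counting intervals do not cover the spread between so few cells. The fit with stage as a term gave a log2 fold change of 1.6 ± 0.36 (SE; edgeR, adjusted p = 0.00686), with 1 residual degree of freedom. The call was lost in 7 of the alternatives tried, DESeq2 among them (adjusted p = 0.0554). GAD1 and SLC32A1 did not pass, and their 2MPT counts of 4 against 2 and 1 against 0 UMIs gave no order between the sites, with fitted log2 values of 1.53 ± 0.54 (edgeR, adjusted p = 0.646) and 2.81 ± 0.84 (edgeR, adjusted p = 0.229). PFC_4MPT also had the highest median mitochondrial share of UMIs, 7.31% against 2.35% to 3.77% in the other libraries, whose part was not tested. Within inhibitory-like cells the order of GAD2 turned: PFC_4MPT was 0.792 times HIP_4MPT (95% interval 0.727 to 0.864).

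The chloride cotransporters were much steadier. SLC12A2, the inward transporter NKCC1, had 19.3 CPM in D0 neurons, 18.8 and 34.3 in the 2MPT grafts of HIP and PFC, and 28.8 and 30.5 in their 4MPT grafts. The stages overlapped, since PFC_2MPT was the highest library and HIP_2MPT the lowest. Its log2 fold change from 2MPT to 4MPT was 0.19 ± 0.30 (SE; edgeR, adjusted p = 0.864), and the sign turned without HIP_2MPT, to -0.19. It did not pass against D0 at 2MPT (0.32 ± 0.37; edgeR, adjusted p = 0.499) or at 4MPT (0.52 ± 0.37; edgeR, adjusted p = 0.269).

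SLC12A5, the outward transporter KCC2, had 35.6 CPM in D0 neurons, 107.7 at HIP and 77.4 at PFC after 2 months, and 118 at HIP and 119.5 at PFC after 4 months. Every graft was above D0, by 3.03-, 2.17-, 3.31- and 3.36-fold in the order given, and the 4MPT libraries differed by less than counting error. Marker levels of neurons moved with this difference: the 7 radial glia markers summed to 2315 CPM in D0 neurons and 274 to 529 in graft neurons, and the 8 pan-neuron markers to 4076 CPM and 4778 to 8927. Their part in the result was not tested. The log2 fold change against D0 was 1.22 ± 0.31 at 2MPT (edgeR, adjusted p = 0.00848) and 1.64 ± 0.32 at 4MPT (edgeR, adjusted p = 0.00163). Between the graft stages it was 0.41 ± 0.24 (edgeR, adjusted p = 0.545). A UMI of SLC12A5 was found in 3.96% of thinned D0 neurons, 10.4% and 7.28% at HIP and PFC after 2 months, and 11.6% at both sites after 4 months (unthinned 24.4%, 12.7%, 15.1%, 23.9% and 17.3%). The same share in astrocyte-like cells was 0%, 3.54%, 0.503%, 0.768% and 1.49%.

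Neuron-like clusters differed in SLC12A5. Intermediate progenitor neurons, which lie between progenitors and neurons, were at the low end in most libraries. They had 14.2 CPM in D0, 59.9 and 32.1 in the 2MPT grafts of HIP and PFC, and 49.6 and 94.3 in their 4MPT grafts. Over the other clusters with 50 cells or more the highest value was 41.5 CPM in D0 and 106 to 181 CPM in the grafts. Inhibitory-like cells had 31.5 CPM in HIP_4MPT and 56.4 in PFC_4MPT, and 36.7 in D0. In progenitors SLC12A5 had 11.3 CPM in D0, 60.9 at HIP and 23.9 at PFC after 2 months, and 23.0 at HIP and 18.6 at PFC after 4 months, so HIP_2MPT stood high.

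The ratio of SLC12A5 to SLC12A2 UMIs in neurons was 1.84 in D0 (exact 95% interval 1.63 to 2.09). At HIP it was 5.72 after 2 months (4.88 to 6.73) and 4.09 after 4 months (3.64 to 4.60), and at PFC it was 2.25 (2.00 to 2.55) and 3.92 (3.48 to 4.43). Both genes were counted in the same cells, but the ratio still moved with which cells were kept and how they were summed. With cells thinned to 1000 UMIs, which left out shallower cells, it was 4.48 in HIP_4MPT and 4.74 in PFC_4MPT, which turned their order. Unthinned, the order also turned with a human share over 0.9 (4.09 and 4.43) or a mitochondrial share under 0.1 (4.08 and 4.45). It turned as well with over 1000 UMIs per cell, and with neurons gated on marker UMIs. Leaving out a cluster led by SST, CCBE1 and MTRNR2L10 turned it too. That cluster held 932 neurons of PFC_4MPT, at a ratio of 1.04. The other settings tried kept the order. In the sums the order was D0, PFC_2MPT, PFC_4MPT, HIP_4MPT and HIP_2MPT. There D0 and PFC_2MPT, and the 4MPT libraries, had overlapping intervals. On the log2 scale D0 was 0.88, the 2MPT mean was 1.84 ± 0.95 (SD, n = 2 libraries) and the 4MPT mean was 2.00 ± 0.04. The difference between the stages was 0.16 (two-sided exact permutation test, p = 1, where 2 against 2 libraries cannot go below 0.333). The libraries of a stage were far apart at 2MPT and close together at 4MPT. Grafts exceeded D0 by 1.04 on the log2 scale, in 4 of 4 libraries for these sums (exact permutation p = 0.2, the smallest that 4 against 1 allows). PFC_2MPT did not stand clear of D0 in every setting. With the mean of per-cell CPM the ratio was 2.23 in D0 and 2.16 in PFC_2MPT, and with neurons gated on marker UMIs it was 2.58 and 2.61. Between sites the log2 difference of PFC from HIP was -0.70 (exact permutation p = 0.333, also the smallest possible).

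**Figure D3:**
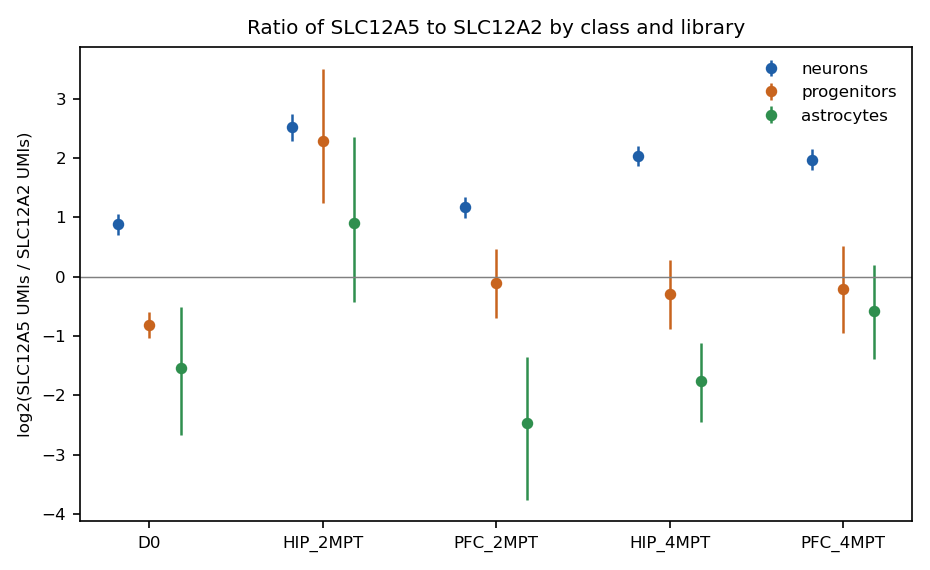
log2 of the ratio of SLC12A5 to SLC12A2 UMIs by library in neurons (blue), progenitors (orange) and astrocytes (green), with exact 95% counting intervals and a line at equal counts. In neurons all libraries lie above the line, from 1.84 in D0 to 5.72 in HIP_2MPT, and HIP_2MPT is also highest in progenitors and astrocytes.

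In the other classes the ratio was near or below 1 except in HIP_2MPT. Progenitors had 0.570 in D0, 4.89 and 0.925 in the 2MPT grafts of HIP and PFC, and 0.814 and 0.861 in their 4MPT grafts. Astrocyte-like cells had 0.344, 1.88, 0.182, 0.295 and 0.667 in the same order. The HIP_2MPT value rested on 44 and 9 UMIs in progenitors (exact 95% interval 2.36 to 11.4). In astrocyte-like cells it rested on 15 and 8 UMIs, with an interval of 0.746 to 5.11 that included 1. The 8 pan-neuron markers also stood high outside neurons in HIP_2MPT, with 2505 CPM in its progenitors against 576 to 1620 in the other libraries, and 2532 CPM in its astrocyte-like cells against 589 to 826. HIP_2MPT was the shallowest library too. Their part in the ratio was not tested. Intermediate progenitor neurons had 0.447 in D0, 3.75 at HIP and 1.52 at PFC after 2 months, and 2.09 at HIP and 4.00 at PFC after 4 months, the sole neuron class below 1 in D0. Inhibitory-like cells had 2.64 in D0, 2.00 in HIP_4MPT and 2.50 in PFC_4MPT, with intervals that overlapped.

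The ratio was also taken within clusters. PFC_2MPT had a lower ratio than HIP_2MPT in 8 of 9 neuron-like clusters, 1 of which had under 3 UMIs of a gene in HIP_2MPT, and PFC_4MPT was above PFC_2MPT in 8 of 10. At HIP the stages gave no such order, with HIP_4MPT above HIP_2MPT in 3 of 8 clusters. Graft ratios exceeded those of D0 in 5 of 5 clusters for HIP_2MPT, 6 of 6 for PFC_2MPT, 5 of 6 for HIP_4MPT and 6 of 8 for PFC_4MPT. Clusters of 1 library share their source and are not replicates. The highest ratio in 3 of the 4 grafts was in a cluster led by TUBB3, STMN2 and GNG3, at 9.38 in HIP_2MPT, 11.1 in HIP_4MPT and 7.74 in PFC_4MPT.

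**Figure D4:**
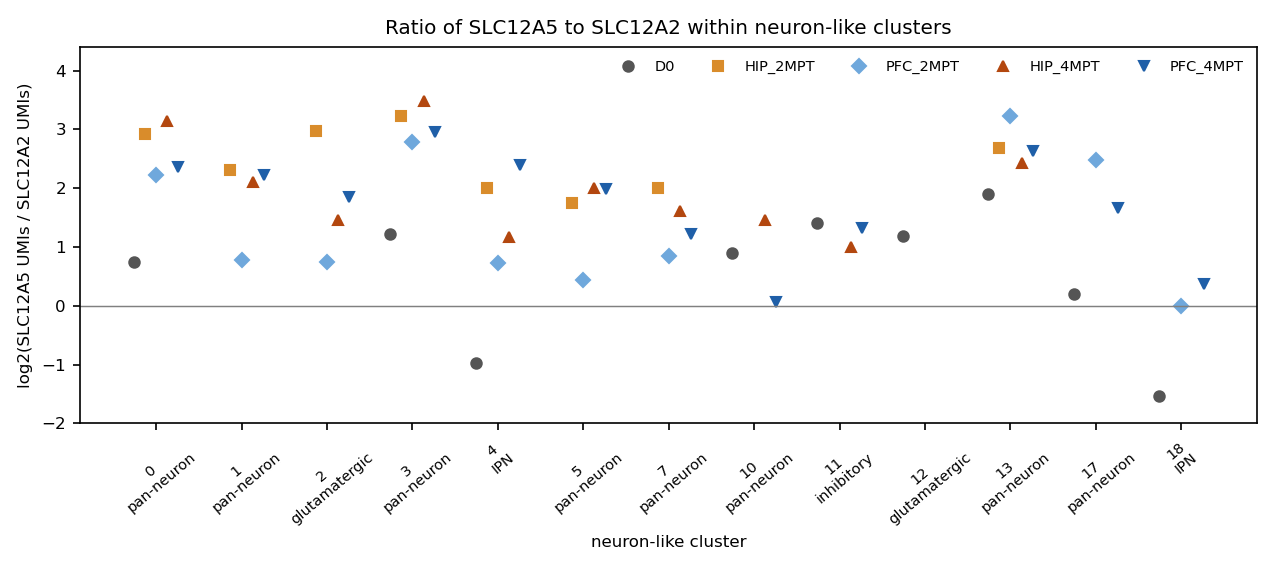
log2 of the ratio of SLC12A5 to SLC12A2 UMIs in each neuron-like cluster (horizontal axis), with 1 symbol per library, where both genes had at least 3 UMIs. Clusters need 50 cells in a library, and IPN marks intermediate progenitor neurons. PFC_2MPT lies below HIP_2MPT in 7 of the 8 clusters where both are drawn, the exception being cluster 13.

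The other genes of the pathway were taken from a list of 33, of which 30 were tested in neurons. Between 4MPT and 2MPT none was called in neurons, with a median log2 fold change of 0.03 beside -0.00 over all genes tested. At an unadjusted p under 0.05 the comparison had 2188 genes in all. Against D0, 10 of the 30 were higher and 9 lower at 2MPT, where 26.5% of all genes were called higher and 17.4% lower. At 4MPT 10 were higher and 7 lower, where 28.1% and 19.3% of all genes were. The medians were 0.13 and 0.15, close to those of all genes. None of the 30 was called between PFC and HIP, a comparison in which 0.201% of all genes were called.

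By role, the GABA transporters of the plasma membrane SLC6A11 and SLC6A12 were called higher than in D0 at both graft stages, at levels of no more than 9.41 and 3.49 CPM. ABAT, the transaminase that breaks GABA down, was 46.2 CPM in D0 and 17.1 to 28.7 in the grafts, and was called lower at both stages. ALDH5A1, which acts after it, was called lower at 2MPT alone.

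Genes that supply glutamate and glutamine were among the more abundant. GLUL, glutamine synthetase, was 144 CPM in D0 and 39.7 to 56.3 in graft neurons, called lower at both stages, and SLC38A1, a glutamine carrier of neurons, was lower too, at 103 against 54.2 to 68.2 CPM. SLC1A3, a glutamate transporter typical of glia, rose from 10.5 CPM in D0 to 62.1 to 142 in the grafts (log2 3.45 ± 0.35 at 4MPT; edgeR, adjusted p = 2.38e-05). Astrocyte markers in neurons summed to 33.0 CPM in D0, 17.8 and 11.7 in HIP_2MPT and PFC_2MPT, and 74.8 and 78.2 in HIP_4MPT and PFC_4MPT, and their part was not tested. SLC1A2, its relative, had 65.6 to 106 CPM and was not called in neurons.

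Of the other cation-chloride cotransporters, SLC12A8 was called higher than in D0 at 2MPT, and SLC12A1, with 0 UMIs in D0, was called at both stages at no more than 1.55 CPM. SLC12A4, SLC12A7 and SLC12A9 were not called. Among the WNK kinases, which set the activity of NKCC1 and KCC2 by phosphorylation, WNK2 rose from 37.1 CPM to 83.4 to 153, WNK4 rose from 0.143 to at most 2.61, WNK3 fell at 2MPT, and WNK1 (61.5 to 90.6 CPM) was not called. STK39, the kinase SPAK that WNK kinases act through, was called higher at 4MPT. NETO2, a membrane protein that binds KCC2, rose from 45.8 CPM in D0 to 113 to 204 in the grafts. CKB, a creatine kinase, was the most abundant gene of the list, at 1564 CPM in D0 and 619 to 1054 in the grafts, and was called lower at both stages.

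The bicarbonate and chloride carriers differed in direction. SLC4A10 rose from 11.9 CPM in D0 neurons to 69.0 to 122 in the grafts, while SLC4A8 fell from 50.6 to between 17.8 and 28.7. CA2, carbonic anhydrase II, was lower in graft neurons, and CLCN3, a chloride-proton exchanger of vesicles, stayed between 38.6 and 62.4 CPM with no call. In progenitors SLC4A10 was the only listed gene called between the stages, and it fell by 1.82 on the log2 scale (± 0.37; edgeR, adjusted p = 0.0141). In astrocyte-like cells SLC1A2 rose by 1.06 ± 0.24 (edgeR, adjusted p = 0.0494) and CA2 by 3.28 ± 0.39 (edgeR, adjusted p = 0.00318), as did the summed astrocyte markers given above.

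DLX1, DLX2, DLX5 and DLX6, transcription factors of GABA neuron development, rose with the GAD genes. All 4 were called higher at 4MPT than at 2MPT in neurons and again in progenitors, while SP8 was not, and LHX6, a factor of ventral interneurons, was too low to test in neurons, at no more than 0.162 CPM. Since DLX1, DLX2, DLX5, DLX6 and SP8 were among the markers that named the inhibitory-like cluster, their level in it is not a result. In neurons DLX2 went from 35.5 CPM in D0 to 0.207 and 2.40 at 2MPT and to 23.2 and 80.1 in HIP_4MPT and PFC_4MPT. The dip at 2MPT was shared with GAD1 and GAD2, while the place of D0 was not: it lay between the 4MPT libraries for DLX2, above both for GAD1 and below both for GAD2. Between the sites DLX1, DLX2 and DLX5 were called higher in PFC.

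The genes most like each of the 5 were found by Pearson's r over 84 sums, 1 for each cluster and library with at least 50 cells, among 12363 genes. These sums share libraries, depth and cells, so r is a description. GAD1 was closest to DLX6-AS1 (r = 0.90), followed by DLX6, DLX5, DLX2 and SP9, and GAD2 to DLX1 (r = 0.955), followed by DLX2, SP9, DLX5 and ST8SIA5. SLC32A1 was closest to CALB2 (r = 0.897), the calcium-binding protein calretinin, then RIPOR2, SP8, DLX6-AS1 and DLX6. SLC12A5 was closest to KLHL35 (r = 0.891), then ACTL6B, SRRM4, STMN2 and CNR1. SLC12A2 had no close match, with CDK13 at r = 0.609 ahead of MDM4, SPRED1, GOLIM4 and ITSN2. Among the 5 genes themselves, r was 0.760 between GAD1 and GAD2, 0.720 between GAD1 and SLC32A1, 0.40 between GAD2 and SLC32A1 and -0.02 between the chloride cotransporters.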

How the data were processed

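The deposited files held UMI counts per gene and cell barcode, made by the authors with Cell Ranger (3.1.0 in the headers of D0, 5.0.0 in those of the grafts, 3.1 in the submitters' processing notes) on human GRCh38, and for the grafts also on a joint human and mouse reference. Cells kept had over 500 UMIs, over 500 genes, log10 genes divided by log10 UMIs above 0.80, under 15% mitochondrial UMIs and, in grafts, over 80% human UMIs. Mixed-species barcodes were thereby removed, and no doublet caller was run. Cells were clustered with Seurat 5.3.0 and sctransform 0.4.2 (2500 variable genes without the 5 genes, of which GAD2 and SLC12A5 had been among them, 40 components, resolution 0.8). A cluster was named where at least 3 markers of a list other than pan-neuron were raised 2-fold. A cluster without such a list was called pan-neuron where at least 3 pan-neuron markers reached 10 CPM and the mean log2 fold of that list was positive. Such neuron-like clusters need not have had any pan-neuron marker raised 2-fold. Genes outside the 32732 listed in both annotations were left out.

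UMIs were summed per library and class and tested with edgeR 4.0.16 (quasi-likelihood, TMM, filterByExpr, Benjamini-Hochberg adjustment over all genes tested, threshold 0.05) in R 4.3.3. D0, 2MPT and 4MPT were fitted together for neurons and progenitors, the 4 grafts alone for astrocytes and, with stage as a term, for PFC against HIP. SE is the log2 fold change over the root of F. Single values were tested by exact permutation over libraries. Count intervals are exact Poisson, shares exact Clopper-Pearson, at 95%, for counting error only, and the floor is 3 counts. The fit was tried on counts simulated for 4MPT against 2MPT and recovered large known changes. Smaller changes, the comparisons with D0 and PFC against HIP were not simulated. DESeq2 1.42.0, other filters, clusterings and libraries left out were tried as alternatives. The 5 genes, the lists and the alternatives were chosen with earlier results of these data known. The labels give no separate cultures or animals for the libraries. The text names the 5 genes in every class, listed pathway genes called in neurons between graft stages or at 50 CPM or more in neurons of a library, and the 5 most similar genes by r of log2(CPM + 10) among genes with at least 500 UMIs. Other listed genes and clusters named in the text were chosen after their values were seen. Some listed genes are not reported here by name.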

Additional observations from a re-analysis of the deposited data

Results flagged for a closer look

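The ratio of SLC12A5 to SLC12A2 in neurons moved in opposite directions at the sites. From 2MPT to 4MPT its log2 changed by -0.48 at HIP and by 0.80 at PFC, with 1 library per site and stage, and this difference was not tested.

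Mouse cells of the host were outside the comparisons above. Barcodes with a human share of UMIs of at most 0.2 in the joint reference numbered 934 and 2163 in HIP_2MPT and HIP_4MPT, and 802 and 1204 in PFC_2MPT and PFC_4MPT. Mouse Slc12a2 was present in all, at 32.4 CPM in HIP_2MPT and 172.1 in HIP_4MPT, and at 64.6 CPM in PFC_2MPT and 115.9 in PFC_4MPT, while Slc12a5 had 1, 3, 6 and 5 UMIs in that order.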

How the results depend on the processing

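Of 420 alternative values of the log2 fold changes, 389 kept their direction and side of the threshold, 18 were no longer past it, 5 newly passed and 8 changed sign. Without inhibitory-like cells 0 of the 5 genes were called in neurons between graft stages. DESeq2 called 1 gene in 4MPT against D0. The counts in this paragraph stand without the share of all genes called in each fit, so they show only whether calls were kept. For PFC against HIP the count was 0 with DESeq2, with no stage in the fit, at resolution 1.6, with the 5 genes kept in the clustering, without intermediate progenitor neurons, without inhibitory neurons and with neurons gated on marker UMIs; no library could be left out, since no residual degree of freedom remained. In astrocytes 1 gene, GAD2, was called with no low-count filter and, as alternatives chosen after seeing the data, with the OLIG1-led cluster added. Leaving out 1 library at a time gave 0 to 1 called in astrocytes, 3 in neurons between stages, 4 at 2MPT against D0, 3 to 4 at 4MPT against D0 and 2 in progenitors.

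SLC12A2 changed sign without HIP_2MPT between stages in neurons, and over libraries left out its log2 value ran from -0.19 to 0.74. Against D0 at 2MPT it ran from -0.27 without PFC_2MPT to 0.72, and in astrocytes from -0.12 without HIP_2MPT to 1.12. SLC12A5 in astrocytes, at -0.03, was 0.019 with no filter, 0.047 at resolution 1.6, 0.37 with the OLIG1-led cluster, and ran from -0.99 to 1.13 over libraries left out, with 1.13 and 0.36 without HIP_2MPT and HIP_4MPT. The stage difference of the log2 ratio was -0.51 to 0.83 with 1 library left out, and it turned without PFC_2MPT. The median share of cells with a UMI was 0.984% thinned and 3.26% unthinned, and 45 of 75 shares moved. The causes were not tested.

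With site as a replicate block in the fit, 3 genes were called in neurons and 2 in progenitors, as without it, while all calls in neurons went from 182 to 317 higher and 179 lower. D0 has no site and could not be blocked. Site is a label of place and not a replicate number, and the deviations of HIP from the stage means correlated at r = -0.30 over 9708 genes. The 2 libraries of a stage limit every test, and at 2MPT GAD1 and SLC32A1 were near the depth limit, where 3 counts are 0.310 CPM in HIP_2MPT.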

Other observations

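GAD1 was found in D0 choroid plexus-like cells, a class outside neurons, progenitors and astrocytes. These 396 cells, named from TTR and other markers of the tissue that makes cerebrospinal fluid, held 301 of the 1064 GAD1 UMIs of D0, which is 28.3%, at a level of 44.8 CPM (28.7 CPM in D0 neurons). GAD2 and SLC32A1 had 4 and 6 UMIs in the same cells, at 0.596 and 0.894 CPM. A GAD1 UMI was found in 4.80% of the thinned cells and 37.1% unthinned. The grafts had nearly no such cells.

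A further cluster stayed unnamed because astrocyte and oligodendrocyte progenitor markers were both raised in it. It was led by OLIG1, SPARCL1, EGFR and OLIG2 and had 1073 cells in HIP_4MPT and 834 in PFC_4MPT. It held 24.2% of GAD1 UMIs in HIP_4MPT and 8.81% in PFC_4MPT, at 12.1 and 13.7 CPM. In the same order it held 8.36% and 6.44% of GAD2 UMIs, at 29.0 and 101.3 CPM. Its parts of SLC12A2 UMIs were 22.6% and 11.9%. SLC32A1 had no UMI in this cluster in any library.

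In mouse barcodes the GABA genes had more UMIs in the PFC libraries than in the HIP libraries. Gad1 had 0 UMIs in both HIP libraries, 19 in PFC_2MPT and 74 in PFC_4MPT, and Gad2 had 0, 2, 30 and 85 UMIs in HIP_2MPT, HIP_4MPT, PFC_2MPT and PFC_4MPT. Human GAD2 in neurons was also higher in PFC at both stages, though at 2MPT this rested on few inhibitory-like cells. In the joint reference the log2 fold change of human GAD2 in neurons from 2MPT to 4MPT was 4.66, as in the human reference. That value compares stages and does not bear on the difference between sites. The sites were also compared in the joint reference, which was not among the alternatives that lost the GAD2 call. The mouse barcodes were not sorted into cell types, and each site and stage had a single library. A link between the mouse and human values was not tested.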
